A study of Equus caballus with 4 samples.

Results

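The interferon regulatory factors (IRF) *irf1*, *irf2*, *irf3*, *irf4*, *irf5*, *irf7*, *irf8* and *irf9* were followed in cultured equine satellite cells (ESC), which are the stem cells of muscle. The genes were chosen by name, and all probes on the arrays that carried the symbol of 1 of these 8 genes were taken. This gave 15 of the 43603 non-control probes and 7 of the 8 genes, since no probe carried the symbol of *irf3*. The cells came from m. semitendinosus and were on day 3 of differentiation. The HMB group had been kept with 50 µM HMB (β-hydroxy-β-methylbutyrate, a metabolite of leucine) for 24 h and had been exposed to 3 mM H2O2 in the last 1 h, whereas the control group had received H2O2 and no HMB. Each of 4 two-color arrays carried RNA of the HMB group labeled with Cy5 together with control RNA labeled with Cy3, so each array gave 1 ratio per probe and was counted as 1 replicate. The dyes were not swapped, hence treatment and dye cannot be told apart. The labels number the HMB samples as 4 biological replicates but mark the control as replicate 1 on every array. The methods give n = 4 for the control cells as well. Should the labels instead mean a single control RNA, its spread is missing from the errors. The methods selected the best culture for further work, so the 4 arrays need not stand for 4 horses.

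IRFs are transcription factors that bind interferon-stimulated response elements in the promoters of antiviral and immune genes. IRF3 and IRF7 are activated by kinases downstream of sensors of foreign nucleic acid and switch on the type I interferon genes, while IRF9 works in the ISGF3 complex that answers interferon. IRF1 activates and IRF2 antagonizes many of the same promoters, whereas IRF4, IRF5 and IRF8 are best known from lymphoid and myeloid cells.

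Of the 15 probes, 4 were bright enough to be tested, and they belonged to *irf7*, *irf9*, *irf1* and *irf2*. All 4 were called higher in the HMB group and 0 were called lower, where 12.1% of the 24669 tested probes on the arrays were called higher, 16.4% lower and 28.6% in either direction. Testing required that the HMB channel, the control channel or both stood well above background on each of the 4 arrays, and a call required a limma p of at most 0.05 after Benjamini-Hochberg correction together with an FC of at least 1.3. The median log2 ratio of all tested probes was -0.07. The filter can be passed through 1 channel alone, and *irf2* passed only through the HMB channel. With a filter on both channels, 3 members were tested and called higher, beside 11.2% of the probes.

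The sequences of the 60-base probes are given because they show which stretch of each transcript was read. Positions follow the files and refer to EquCab1, a build of the horse genome, and chrUn stands for sequence not placed on a chromosome. The probes of the 4 tested genes were the following.
irf7 (chrUn:305567879-305567938, minus strand): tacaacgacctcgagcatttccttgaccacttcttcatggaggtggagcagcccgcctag
irf9 (chrUn:180659975-180660034, minus strand): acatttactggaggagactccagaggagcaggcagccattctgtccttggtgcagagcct
irf1 (chr14:42335582-42337197, plus strand): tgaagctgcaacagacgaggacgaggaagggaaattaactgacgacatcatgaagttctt
irf2 (chr27:24896920-24907974, plus strand): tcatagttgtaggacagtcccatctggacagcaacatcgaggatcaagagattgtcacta
The positions of the *irf1* probe span 1616 bases and those of the *irf2* probe 11055 bases, so these probes cross at least 1 intron and match the spliced transcript. The positions of the *irf7* and *irf9* probes span 60 bases each. The files do not name the exon.

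The genes below the filter were read by the following probes, of which *irf4* and *irf8* are shown by 2 each out of 5. Capitals mark the bases that all probes of the gene share.
irf5 (chr4:83155285-83155344, plus strand): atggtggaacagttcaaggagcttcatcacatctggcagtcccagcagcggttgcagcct
irf8, first of 5 (chr3:32820110-32820169, plus strand): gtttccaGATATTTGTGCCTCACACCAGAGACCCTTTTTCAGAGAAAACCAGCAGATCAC
irf8, last of 5 (chr3:32820117-32820176, plus strand): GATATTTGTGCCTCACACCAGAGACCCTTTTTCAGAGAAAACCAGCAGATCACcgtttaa
irf4, first of 5 (chr20:534240-534299, plus strand): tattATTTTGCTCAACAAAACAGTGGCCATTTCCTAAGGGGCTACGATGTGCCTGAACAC
irf4, last of 5 (chr20:534244-534303, plus strand): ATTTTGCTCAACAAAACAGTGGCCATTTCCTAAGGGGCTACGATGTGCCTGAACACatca
The 5 probes of *irf8* share 53 bases and the 5 probes of *irf4* share 56 bases. They therefore read 1 stretch of the transcript repeatedly and are not independent readings of the gene. The longest run of identical bases between any of the probes and a probe of another gene was 15 bases, and the GC content of the probes lay between 43.3% and 55%.

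The largest difference was found for *irf7*, which encodes the inducible activator of the type I interferon genes. Its log2 ratio of HMB over control was 3.44 in replicate 1, 3.58 in replicate 2, 3.64 in replicate 3 and 3.12 in replicate 4. All values were far above 0, and replicate 4 was the lowest. The normalized signal of the control channel lay between 1688 and 2144 and that of the HMB channel between 14720 and 26783. Hence, the channels did not overlap and both were well above background on every array. The mean log2 ratio was 3.45 ± 0.23 (SD, n = 4), or an FC of 10.9, with limma giving an adjusted p of 3.27e-06 and a 95% confidence interval of the log2 ratio from 3.21 to 3.68. Of all tested probes, 99.3% had a lower ratio.

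The gene *irf3*, whose product is usually present before stimulation and is activated by phosphorylation, had 1 probe by the description in the files alone, with a transcript identifier in place of a symbol. It does not meet the rule and is not counted among the 15 probes.
irf3 by description (chrUn:234551372-234551431, minus strand): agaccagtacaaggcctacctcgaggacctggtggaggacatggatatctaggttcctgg
Its log2 ratio was -0.06, 0.06, 0.26 and 0.26 in replicates 1 to 4, below 0 on 1 array and above 0 on the other 3. The mean was 0.13 ± 0.16 (SD, n = 4) with a limma adjusted p of 0.219, and the 95% interval ran from -0.06 to 0.32. This probe was not called, with control signals between 1300 and 1726 and both channels well above background on every array.

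The gene *irf9* encodes the DNA-binding subunit of ISGF3. Its log2 ratio was 1.82, 1.88, 1.90 and 1.501 in replicates 1 to 4, with replicate 4 again the lowest. The control signal was 285, 282, 292 and 257, and the HMB signal was 1007, 1040, 1092 and 726. The lowest HMB signal thus stood well over the highest control signal. The mean log2 ratio was 1.78 ± 0.19 (SD, n = 4), or an FC of 3.43, and the adjusted p in limma was 3.07e-05.

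The gene *stat2*, which encodes a partner of IRF9 in ISGF3, was also higher in the HMB group. Its mean log2 ratio was 0.70 ± 0.23 (SD, n = 4) with a limma adjusted p of 0.00217, and 3 of its 3 probes were called.

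The activator *irf1* had a log2 ratio of 1.63, 1.77, 1.88 and 1.69 in replicates 1 to 4, the narrowest spread among the 4 tested genes. Its control signal was 71.3, 52.4, 80.9 and 48.3, and its HMB signal was 221, 179, 297 and 156, and neither channel fell to background on any array. The mean log2 ratio was 1.74 ± 0.11 (SD, n = 4), or an FC of 3.34, and limma gave an adjusted p of 1.23e-05. The size of this change was smaller in both alternatives that changed the background step together with the normalization. With the background left in before loess the log2 ratio was 1.13, and with normexp it was 0.83, both called.

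For *irf2*, the antagonist of IRF1, the control channel was well above background on 0 of 4 arrays and the HMB channel on 4 of 4. The control signal was 12.0, 15.1, 17.9 and 21.6 in replicates 1 to 4, against an HMB signal of 47.3, 66.4, 67.8 and 48.1. These signals did not overlap, although those of the control have only an upper bound. The deposited normalization was used, with average intensities further equalized between the arrays. Set against a floor for the control, the *irf2* probe was 2.63-fold higher in the HMB group as a mean over the 4 arrays. For this bound, the lowest signal well above background on each array, or the probe's own where it was higher, replaced the control. Signals above this floor can still fail the flag, so the bound is approximate. The bound is 1.40 as a log2 ratio and does not hold on each array, since replicate 4 measured 1.15. The limma adjusted p of the measured mean ratio against 0 was 3.72e-04. The probe entered this test only through the channel in which it was high, so this p is not separate support. The measured log2 ratio was 1.98, 2.14, 1.92 and 1.15, with a mean of 1.80 ± 0.44 (SD, n = 4), where replicate 4 was the lowest. The value was 0.51 with the background left in and 0.42 with normexp, with adjusted p-values of 2.54e-04 and 0.0250, so the bound does not carry over to those settings, nor to the spike-in scaling with 1.31.

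**Figure D1:**
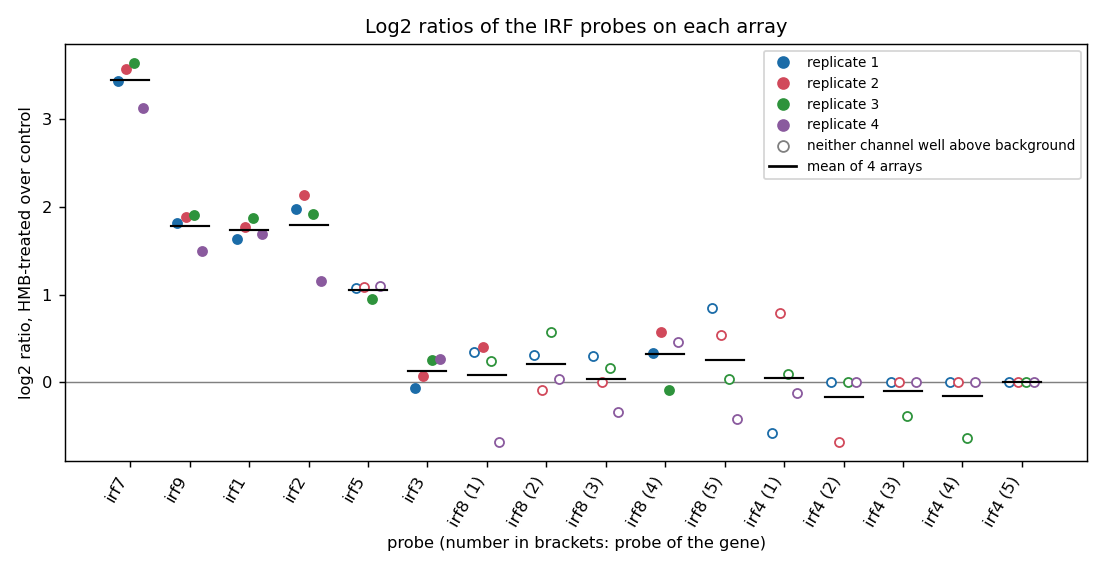
The log2 ratio of HMB-treated over control cells (vertical axis) is plotted for each IRF probe (horizontal axis), with 1 point per array and a bar for the mean of 4 arrays; open points had neither channel well above background. The 4 arrays lie between 3.12 and 3.64 for irf7 and between 1.15 and 2.14 for irf9, irf1 and irf2, while the irf3 probe, named by its description, lies around 0.

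The tested members were compared with each other within the arrays. The log2 ratio of *irf7* was higher than that of *irf9* by 1.67 and than that of *irf1* by 1.70, on 4 of 4 arrays in each case, and the ranges did not overlap. The two-sided exact sign-flip test gave p = 0.125 for each, the smallest that 4 arrays allow, and 0.25 after Benjamini-Hochberg correction over 6 pairs, hence these differences could not pass the threshold. The ranges of *irf9* and *irf1* overlapped, and their means differed by 0.03 with an exact p of 0.625. This small gap belongs to the deposited normalization, since the ratios were 1.36 for *irf9* and 0.83 for *irf1* with normexp and 1.60 and 1.13 with the background left in. The differences from *irf2* are not given, because its control signal has only a bound. These are differences between ratios, and the signals of different probes were not compared as levels.

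**Figure D2:**
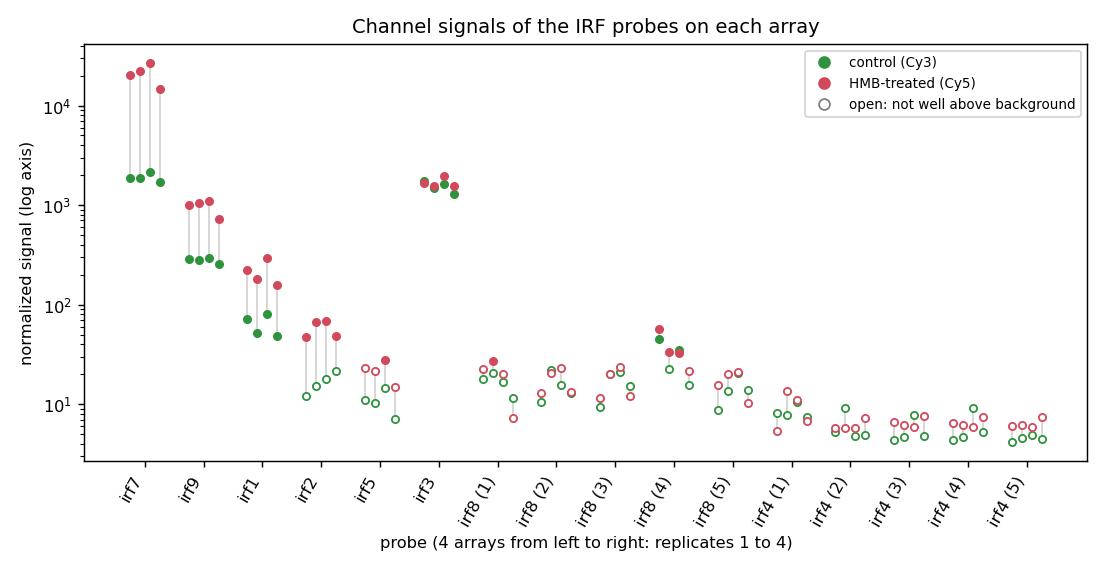
Normalized signals of the control (Cy3) and HMB-treated (Cy5) channels are plotted on a log axis for each IRF probe, with the 4 arrays side by side and a line joining the channels of an array; open points were not well above background. All HMB signals of irf7, irf9, irf1 and irf2 lie above the control signals of the same probe, and all control points of irf2 are open.

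**Figure D3:**
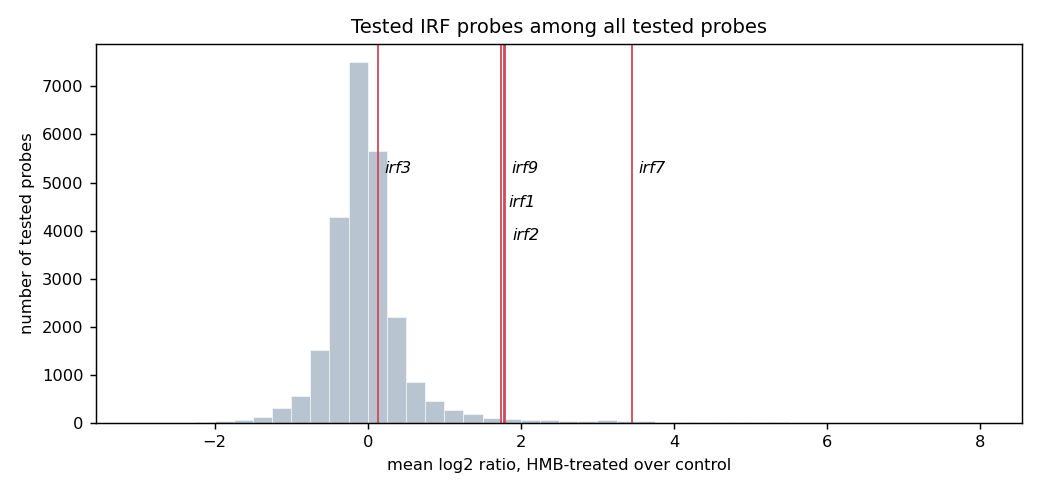
The bars count the 24669 tested probes by mean log2 ratio over 4 arrays (horizontal axis, HMB-treated over control), and the lines mark the tested IRF probes and the irf3 probe named by its description. The irf9, irf1 and irf2 lines lie at 1.78, 1.74 and 1.80 and the irf7 line at 3.45, to the right of the bulk of the probes around -0.07.

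The members known from immune cells were near or below the detection limit. The probe of *irf5*, which encodes an activator of inflammatory cytokine genes in myeloid cells, was well above background in the control channel on 0 arrays and in the HMB channel on 1 array. Its log2 ratio was 1.08, 1.09, 0.95 and 1.09 in replicates 1 to 4, a narrow range above 0. Its control signals were between 7.03 and 14.4 and its HMB signals between 15.01 and 27.9, so no FC is given. It did not reach the test. With dim probes kept, where 6.58% of 43602 probes were called higher, it was called with a limma adjusted p of 0.00283. With the floor used for *irf2* in place of the control, the mean log2 ratio of *irf5* was -0.006, so the size of a difference is not known.

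Among the 5 probes of *irf8*, a regulator of myeloid and B cell development, 3 were well above background in neither channel on any array. The brightest was well above background on 2 arrays in the control channel and on 3 in the HMB channel, and its log2 ratio was 0.33, 0.57, -0.09 and 0.46 in replicates 1 to 4. This ratio was above 0 on 3 of 4 arrays. The mean ratios of the 5 probes lay between 0.03 and 0.32, and none was called without the filter, where the adjusted p was between 0.188 and 0.967.

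For *irf4*, a factor of lymphocyte differentiation, the 5 probes were well above background on 0 arrays in both channels. A ratio of exactly 0 stood in the files for all 4 arrays of 1 probe and for 3 arrays of another 3 probes, where the HMB signal or both signals had been replaced by a surrogate. These zeros are not measurements of an equal level. A change of *irf4* was not detectable on these arrays.

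Markers of other cell types were examined beside these results. Of 17 leukocyte markers on the arrays, 10 were well above background in neither channel on any array, among them *itgam*, *cd79a* and *laptm5*, and no probe was matched to *ptprc*. The summed signal of the leukocyte list lay between 4696 and 5739 in the control and between 5400 and 7718 in the HMB channel. Among the 6 that were tested, 2 were called higher (12.1% over all tested probes), 1 lower (16.4%) and 3 were not called. Their ratios ranged from -0.50 (*fcer1g*) to 0.88 (*cd68*). None of 5 endothelial markers was tested.

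The satellite cell label was checked with muscle genes. The myogenic factors *myod1*, *myog* and *myf5* and the muscle filament gene *des* were well above background in both channels on all arrays, and *pax7* was not matched. The further myogenic factor *myf6* was well above background on 4 arrays in the control channel and on 0 in the HMB channel. It was called lower with a measured log2 ratio of -0.84. It was tested only through the control channel in which it was high, so the size is uncertain. Of 9 muscle markers tested, 0 were called higher, 7 were called lower and 2 were not called, from -1.49 for *myf5* to 0.32 for *myod1*. These counts and those of the fibroblast list stand beside 12.1% of all tested probes called higher and 16.4% called lower. Of 7 fibroblast markers, 5 were called higher, 0 lower and 2 were not called, from -0.23 for *col1a2* to 1.49 for *pdgfra*. The summed signal of the muscle list lay between 194536 and 216975 in the control and between 81486 and 124539 in the HMB channel. For the fibroblast list it lay between 416972 and 507214 in the control and between 410760 and 641545 in the HMB channel. These sums run over different probes and were not compared as levels. These marker changes ran in the same samples as the IRF changes, and their part in them was not tested. In RNA from whole cultures, fewer cells of a type and less RNA per cell cannot be told apart.

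The genes around the IRFs were described with lists written from general knowledge, with earlier results of these data known. Where a gene had several tested probes, the brightest stands for it. The counts are to be read beside the 12.1% of all tested probes called higher and the 16.4% called lower. With probes averaged per gene, 10.2% of 8486 genes were called higher. For the sensors and kinases that activate IRFs, 16 of 21 listed genes were tested, and 12 were called higher and 0 lower, with a median log2 ratio of 0.60 beside -0.07 for all tested probes. The highest was *ifih1*, which encodes the RNA sensor MDA5, with 5.36 ± 0.49 (SD, n = 4), and the lowest was *mavs*, the mitochondrial adaptor, with -0.12 and an adjusted p of 0.331. The kinases that phosphorylate IRF3 and IRF7 were called, *tbk1* with 0.67 and *ikbke* with 1.18, the latter with a control channel above background on 2 of 4 arrays. When the arrays were scaled to spike-in RNA, 6 of the 16 were called higher and 1 lower. Under that scaling, 5.05% of all 24669 tested probes were called higher and 17323 probes were called lower.

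Among partners and regulators of IRFs, 12 of 20 were tested, with 7 called higher (12.1% over all tested probes), 1 lower (16.4%) and a median of 0.75. The highest was *usp18*, a negative regulator of the interferon receptor, with 4.03 ± 0.34 (SD, n = 4). The only gene called lower was *kpna1*, a nuclear import factor, with -0.48 ± 0.09, and this call was lost with limma's treat, which asks for an FC above 1.3. The IRF2 co-repressor *irf2bp2* had 0.80 and was called, *irf2bp1* was too dim to be tested, and *irf2bpl* was not matched to a probe. Scaling to spike-in RNA gave 5 genes called higher and 4 called lower. Of all 24669 tested probes, 5.05% were then called higher and 17323 probes were called lower.

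Among interferons and their receptors, 6 of 14 were tested, with 3 called higher (12.1% over all tested probes), 0 lower (16.4%) and a median of 0.39. The highest measured ratio was that of *ifnb1*, the interferon beta gene that IRF3 and IRF7 activate, with a log2 value of 3.42 ± 1.11 (SD, n = 4), from 2.14 to 4.70. Its limma adjusted p was 9.24e-04, and it was tested through the HMB channel, since its control channel was well above background on 1 of 4 arrays and the size of the ratio is uncertain. The lowest was the receptor gene *ifnar1* with -0.21 and an adjusted p of 0.298, although its other probe was called lower. With spike-in scaling 2 genes of the list were called higher and 2 lower, and without replicate 3 there was 1 called lower. Over all tested probes, 5.05% were called higher and 17323 of 24669 lower with the spike-in scaling. Without replicate 3, 3930 of 24741 were called lower.

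The lists of target genes had the highest medians. Their counts stand beside 12.1% of all tested probes called higher and 16.4% called lower. Of 25 targets of ISGF3, 18 were tested, 17 were called higher and 0 lower, with a median log2 ratio of 3.12. The highest measured ratio was that of the antiviral gene *rsad2*, with a limma adjusted p of 5.35e-06, tested only through the HMB channel in which it was high. Since its control channel was above background on no array, its size has only an approximate bound, found as for *irf2*. This was 8.995-fold as a mean over the arrays. Among genes of the list that cleared background on every array in the control and the HMB channel, *herc6*, an interferon-induced gene looked up after the values were seen, had the highest log2 ratio with 4.82. The lowest was *oasl* with 0.31, not called, where 1 of its 2 probes was called higher. Of 26 genes listed as targets of IRF1, 17 were tested, 16 were called higher and 0 lower, with a median of 1.94. The highest was the chemokine *cxcl10* with 6.18 ± 0.37 (SD, n = 4), and the lowest was *cxcl9* with -0.34 and an adjusted p of 0.0996, not called. Median centering, spike-in scaling and leaving out replicate 2 each gave 1 gene of this list called lower. Over all tested probes, these settings called 4041 of 24669, 17323 of 24669 and 3966 of 24965 lower, respectively. With spike-in scaling, 13 genes of this list were called higher, beside 5.05% of all tested probes.

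**Figure D4:**
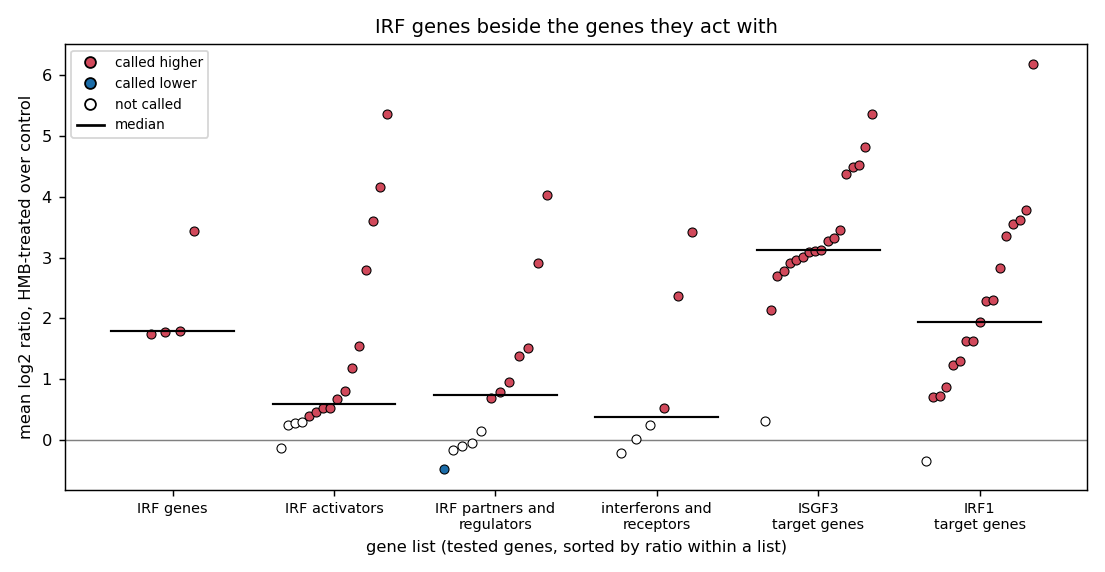
Mean log2 ratios of HMB-treated over control cells (vertical axis) are plotted for the tested genes of each list (horizontal axis), sorted within a list and filled by the limma call, with a bar at the median. The medians are 0.60, 0.75 and 0.39 for activators, partners and interferons with receptors, and 3.12 and 1.94 for the targets of ISGF3 and of IRF1.

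The genes whose ratios were most like those of *irf7* over the 4 arrays were sought by the root mean square difference of log2 ratios. They were *sod2*, the mitochondrial superoxide dismutase, with 0.09 and a mean ratio of 3.43, followed by the chemokine *ccl2* with 0.13 and a mean of 3.54, and *mip-2beta* with 0.16 and a mean of 3.46. These are descriptions over 4 arrays.

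**Figure D5:**
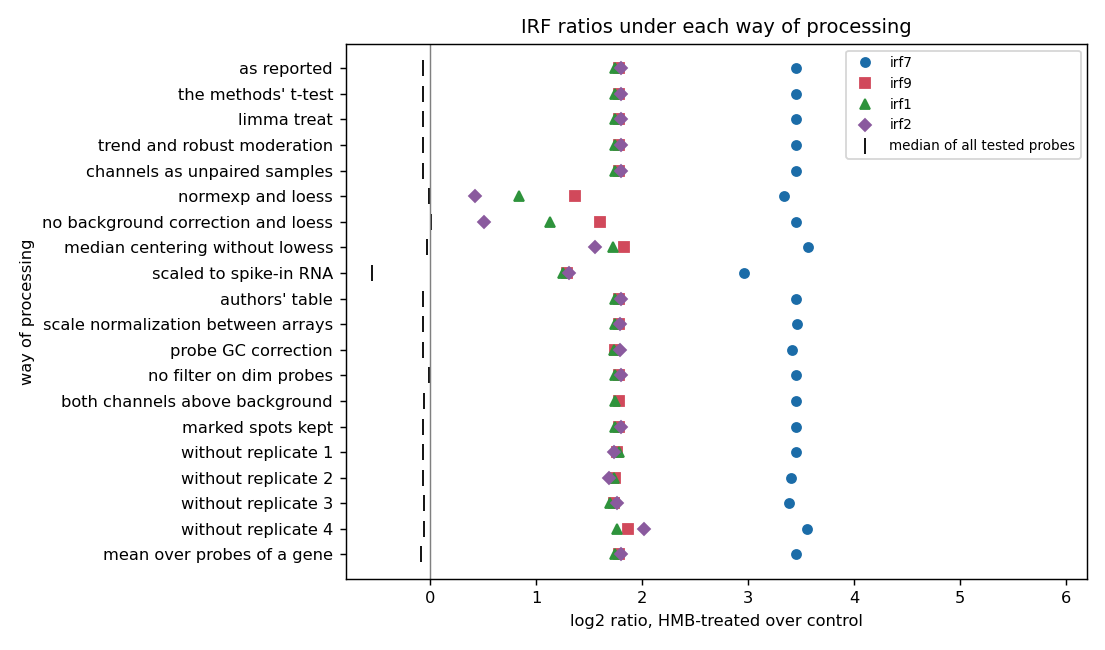
The log2 ratio of HMB-treated over control cells (horizontal axis) is plotted for irf7, irf9, irf1 and irf2 under each way of processing (vertical axis), with a tick for the median of all tested probes. All ratios stay above 0; irf2 and irf1 drop to 0.42 and 0.83 with normexp, and scaling to spike-in RNA moves the ticks from -0.07 to -0.56.

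The calls over all probes depended on the processing, against which the member calls are to be read. Of the 7046 called probes, 42.5% were higher in the HMB group, but 55.0% with normexp, 60.1% with the background left in, 54.6% with treat and 6.72% with scaling to spike-in RNA. With the spike-in scaling, where the median of all tested probes was -0.56, *irf7* had a log2 ratio of 2.96, *irf2* 1.31, *irf9* 1.29 and *irf1* 1.25, and all were called higher. The *irf3* probe then stood at -0.36 with an adjusted p of 0.0122, which was below the FC threshold. In the control channel 57.6% to 60.6% of spots were well above background, in the HMB channel 55.2% to 61.8%, and 0 spots were saturated.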

How the data were processed

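The authors hybridized HMB and control RNA on 4 Agilent horse arrays that lay on 1 slide. The intensity values in the deposited scanner files are spot signals per channel, background-subtracted and normalized within the array by a linear and lowess step of Feature Extraction 10.10.1.1, as the headers state. The deposited log10 values are ratios of Cy5 over Cy3. Flags for background, saturation and outliers came with them. Some signals at background had been replaced by a surrogate, which compresses the ratio of a dim probe. The *irf2* and *irf5* probes, although dim, had a surrogate on 0 arrays in either channel. The log2 ratios used here were the deposited log10 ratios after a change of base. Controls and marked spots were left out, and spots of 1 probe were averaged. A ratio on 3 or more arrays was required besides the background filter, and probes were tested against 0 with limma 3.58.1 in R 4.3.3, with Benjamini-Hochberg correction over 24669 probes. The number of arrays limits the precision.

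The members and gene lists were chosen with earlier results of these data known, and the lists support nothing independently. Besides the members, the genes named were the highest and lowest tested gene of each list, *stat2*, the IRF2-binding proteins, *tbk1*, *ikbke* and the 3 genes most like the strongest member, while *itgam*, *cd79a*, *laptm5*, *ptprc*, *des*, *myog*, *myf6* and *pax7* stand for the marker lists. A further gene that this rule names is not reported here. Alternatives concerned the test, background, normalization, filter and replicates. Promoter motifs and RefSeq sequences were not analysed here.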

Additional observations from a re-analysis of the deposited data

Results flagged for a closer look

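Of 41 probes checked for an array that stood apart from the other 3, 9 were marked by Dixon's criterion for 4 values, which marks about 5% of groups by chance. Among the tested genes, the log2 ratio of *usp18* was 3.53 and that of *rsad2* was 4.66 in replicate 4, both below the other arrays, and *myod1* was at -0.057 in replicate 4. The log2 ratio of *irf2bp2* was 1.05 in replicate 3, above the others. Among probes too dim to be tested, *irf5* was at 0.95 in replicate 3 and 1 *irf8* probe at -0.68 in replicate 4. The *irf4* probes stood at -0.63 and -0.39 in replicate 3 and at -0.68 in replicate 2, where the other 3 arrays had a ratio of 0 with a surrogate in the HMB channel or in both.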

How the results depend on the processing

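The calls of *irf7*, *irf9* and *irf1* as higher were the same under all 19 alternatives, and that of *irf2* under the 18 that could test it, since it could not be tested with both channels above background. Their log2 ratios ranged from 2.96 to 3.56, 1.29 to 1.87, 0.83 to 1.78 and 0.42 to 2.01, respectively. With each replicate left out in turn, they were 3.38 to 3.55, 1.73 to 1.87, 1.70 to 1.78 and 1.68 to 2.01. The alternative with the authors' normalized values holds the same ratios, so it could not differ. Keeping marked spots and averaging probes per gene also left the ratios of these 4 members unchanged, and only their adjusted p could move. The count of members called higher was 4, except for 5 without the filter on dim probes, which added *irf5*, and 3 with both channels above background. With all probes, 7046 were called as reported, 2822 with treat, 3539 with normexp, 4440 with the background left in, 18570 with spike-in scaling and 2347 with probes averaged per gene. The cause was not tested. The reported test is paired within arrays, and the fit with the channels unpaired called 5249 probes and the same 4 members. Dim signals limit *irf2*, *irf4*, *irf5* and *irf8*.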

Other observations

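Some genes of the IRF pathway were too dim to be tested and were picked here after their values were seen. The IRF1 target *cd274*, which encodes the checkpoint ligand PD-L1, had 2 probes, of which the brighter was well above background in the HMB channel on 3 arrays and in the control channel on 0, with measured log2 ratios between 3.04 and 3.79. The gene of BATF3, a partner of IRF8, was above background in the HMB channel on 2 arrays, with ratios between 1.09 and 2.41. The interferon gamma gene *ifng* was, for the brightest of its 3 probes, well above background in neither channel on any array.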
